A study of Mus musculus with 26 samples.

Results

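A set of 10 genes that mark T cells, their subsets and their regulation was followed through AOM–DSS tumorigenesis of the mouse colon with and without LXR activation. They were chosen by symbol as *Cd3e*, *Cd4*, *Cd8a*, *Cd8b1*, *Foxp3*, *Ctla4*, *Il2ra*, *Cd28*, *Icos* and *Gzmb*, and are 10 of the 35975 genes to which the deposited transcript counts were summed. Each of the 10 passed the filter on low counts, which left 17063 genes for testing. RNA came from the colon of wild-type C57BL/6J male mice that began the experiment at about 10 weeks of age and ate either the standard diet or food containing GW3965, a synthetic agonist of the liver X receptors. Mice of days 22, 43 and 70 had received the carcinogen AOM at 10 mg per kg and then DSS, which damages the colonic epithelium, in the drinking water for periods of 7 days. Day 0 mice received neither agent. There were 3 samples per diet at days 22, 43 and 70, and 4 per diet at day 0, of which 2 followed 22 days and 2 followed 43 days on the diet. The study compared the diets over time to look for LXR-mediated mechanisms that act against tumours.

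Several features limit the groups. By the labels, mice sampled on days 22 and 43 shared 1 cage per diet, and those of day 0 shared another. Diet and cage therefore cannot be told apart at days 0, 22 and 43. Within a diet, only days 22 and 43 shared a cage. In comparisons with day 0, and of day 70 with day 22, day and cage cannot be told apart either. Each day 70 sample had its own cage. The sources differ on whether a sample is 1 mouse or a pool of animals, so p-values measure the spread between samples only. One day 0 sample has a title that names GW3965 and a diet label that names the standard diet, and it was placed by its title.

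A T cell recognizes antigen through its receptor, which signals through the CD3 chains, and through a co-receptor, either CD4 on helper and regulatory cells or CD8 on cytotoxic cells. CD28 supplies the second activating signal, CTLA-4 competes for the same ligands and restrains activation, and ICOS is induced once a T cell is activated. Regulatory T cells, abundant in the intestinal wall, are directed by the transcription factor FOXP3 and carry the high-affinity interleukin 2 receptor chain CD25, the product of *Il2ra*. Granzyme B, from *Gzmb*, is a protease that cytotoxic T cells and natural killer cells deliver into target cells.

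Libraries held from 18195345 to 41522204 estimated counts, with a median of 20424701. Counts were scaled to CPM, which divides by the TMM-adjusted library size, for comparing 1 gene between samples. The share of counts on 88 ribosomal protein genes was 5.33% to 6.51% at day 0, 6.06% to 10.7% at day 22, 10.0% to 18.6% at day 43 and 3.96% to 6.66% at day 70, and it was a term of the main model. Standard diet day 43 replicate 1 stood apart, with the lowest RNA integrity number, 2.6, and the largest library, and it had the lowest level within its group for 9 of the 10 genes, the exception being *Ctla4*. Standard diet day 0 replicate 1 of 43 diet days had the highest level in its group for all 10. Tissue makeup also differed. The summed level of 8 stratified epithelium markers was 3.57 to 6.33 CPM in the 8 day 0 libraries, 2554 to 3827 CPM in the day 70 standard libraries, and 15809, 6.34 and 10412 CPM in GW3965 day 70 replicates 1, 2 and 3. Of these, replicate 1 also had 16526 CPM over 6 skeletal muscle markers, against 9.20 to 705 CPM in the other 5 day 70 libraries. The part of these differences in the results was not tested. The 8 colon epithelium markers summed to between 2214 and 13505 CPM in every sample, so the labelled tissue was present throughout.

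The genes lie at 7 places in the genome (GRCm38). *Cd28* (ENSMUSG00000026012.2, chr1:60716800-60773359), *Ctla4* (ENSMUSG00000026011.13, chr1:60887000-60915832) and *Icos* (ENSMUSG00000026009.14, chr1:60977927-61000320) are neighbours on the plus strand, with 113640 bases between the first pair and 62094 between the second. *Cd8b1* (ENSMUSG00000053044.8, chr6:71322788-71337494) and *Cd8a* (ENSMUSG00000053977.13, chr6:71373427-71379173), which encode the chains of the CD8 heterodimer, are 35932 bases apart on the plus strand. *Cd4* (ENSMUSG00000023274.14, chr6:124864692-124888221, minus strand), *Cd3e* (ENSMUSG00000032093.7, chr9:44998740-45009627, minus strand), *Gzmb* (ENSMUSG00000015437.5, chr14:56258838-56262260, minus strand), *Il2ra* (ENSMUSG00000026770.5, chr2:11642807-11693193, plus strand) and *Foxp3* (ENSMUSG00000039521.13, chrX:7573644-7595245, plus strand) stand apart from the rest. One coding transcript held at least 93.5% of the counts of *Cd3e*, *Cd4*, *Ctla4*, *Il2ra*, *Cd28* and *Icos* over all samples. *Cd8a* counts were divided between 2 coding transcripts (58.9% and 30.2%) and a transcript with a retained intron (10.98%), and *Foxp3* counts among 10 transcripts, the largest with 38.8%.

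The bases before the start of 3 of the genes are shown because *Cd3e* stands for T cell content, *Ctla4* had the largest log2 fold change on the GW3965 diet at day 22, and *Gzmb* was the only one of the 10 called between days 22 and 70 on that diet. Each is the 250 bases upstream of the RefSeq start on GRCm38.p6, 5′ to 3′ on the strand of the gene: chr9:45009612-45009861 (minus), chr1:60908775-60909024 (plus) and chr14:56262335-56262584 (minus). Capitals mark GGAAA, the core bound by NFAT and ETS family factors, or TGTGGT, the core bound by RUNX factors, searched on both strands (TTTCC is GGAAA on the other strand).
*Cd3e*: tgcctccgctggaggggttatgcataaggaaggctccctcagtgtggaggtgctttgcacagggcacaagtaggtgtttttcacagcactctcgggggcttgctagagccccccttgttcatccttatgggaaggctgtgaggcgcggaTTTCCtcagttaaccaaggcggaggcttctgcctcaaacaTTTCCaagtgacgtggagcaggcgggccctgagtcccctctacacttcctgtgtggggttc
*Ctla4*: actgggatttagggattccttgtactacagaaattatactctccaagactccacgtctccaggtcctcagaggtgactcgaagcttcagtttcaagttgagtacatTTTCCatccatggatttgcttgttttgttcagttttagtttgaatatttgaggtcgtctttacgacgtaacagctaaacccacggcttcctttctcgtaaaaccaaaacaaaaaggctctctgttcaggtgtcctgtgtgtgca
*Gzmb*: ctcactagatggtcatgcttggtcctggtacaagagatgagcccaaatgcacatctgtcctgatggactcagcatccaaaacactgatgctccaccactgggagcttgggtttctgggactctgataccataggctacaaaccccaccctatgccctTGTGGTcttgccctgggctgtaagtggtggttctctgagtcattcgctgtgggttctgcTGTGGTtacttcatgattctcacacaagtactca
The *Cd3e* window held 2 GGAAA matches and the *Ctla4* window 1, and neither held TGTGGT. The *Gzmb* window held 2 TGTGGT matches, no GGAAA, and 1 match to the AP-1 motif TGANTCA. Among 32851 RefSeq windows of this length, 55.57% held GGAAA, 14.05% TGTGGT and 6.749% TGANTCA, so such matches are common. The *Gzmb* start in RefSeq lies upstream of the gene as GENCODE draws it, and its first 30 bases were in no GENCODE transcript used here.

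Across the 8 groups, the T cell genes were low in untreated colon, high at day 22 and, on the standard diet, low again at day 70. The highest group mean was standard diet day 22 for 7 genes (*Cd3e*, *Cd4*, *Cd8b1*, *Foxp3*, *Il2ra*, *Cd28* and *Icos*), GW3965 day 22 for *Cd8a* and *Gzmb*, and standard diet day 43 for *Ctla4*. The lowest was standard diet day 70 for 5 genes (*Cd3e*, *Cd4*, *Cd8a*, *Cd8b1* and *Cd28*) and one of the day 0 groups for the other 5. When the 8 means of each gene were put in order, neighbouring groups overlapped in 66 of 70 cases, so most neighbours in an order did not differ beyond their spread. The 4 neighbours without overlap were *Cd8b1* in standard over GW3965 at day 22, *Gzmb* in GW3965 day 22 over GW3965 day 43, *Icos* in GW3965 over standard at day 70, and *Foxp3* in GW3965 day 43 over standard day 70. In the bulk samples, fewer T cells and less RNA per T cell cannot be told apart.

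**Figure D1:**
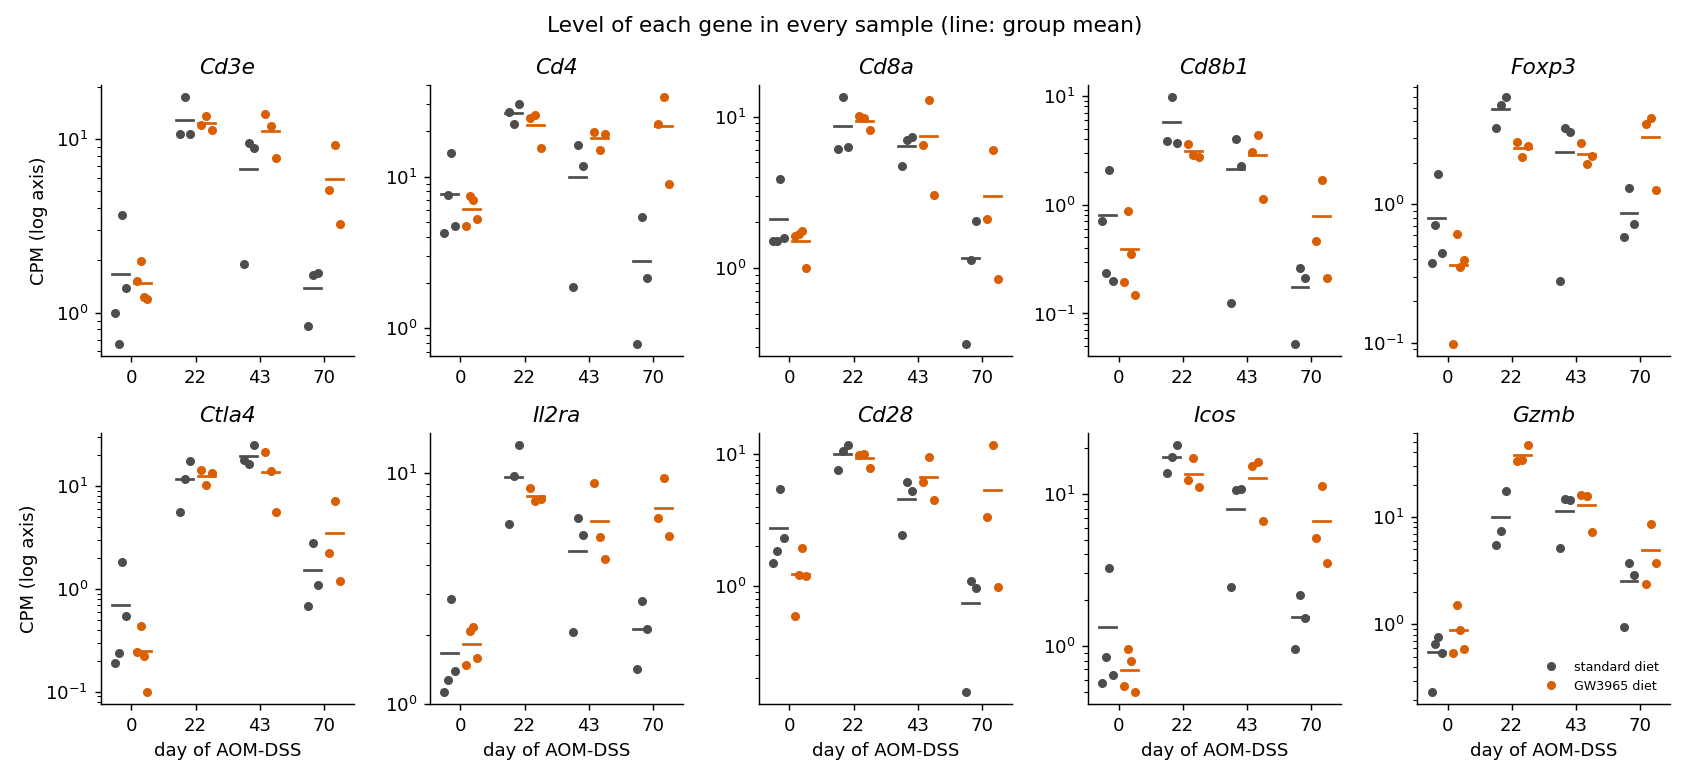
Level of each of the 10 genes in every sample (CPM, log axis) by day of AOM–DSS and diet; points are samples and short lines are group means. All 10 genes sit higher at day 22 than at day 0 on both diets, and at day 70 standard replicate 1 is the lowest standard point of every gene and GW3965 replicate 2 the highest GW3965 point.

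On the per-length scale (TPM, summed over the transcripts of a gene), the median over the 26 samples was 4.05 for *Cd3e*, 3.97 for *Cd4* and 3.87 for *Gzmb*. *Ctla4* had a median of 2.54 TPM and *Icos* 1.66. The other 5 had medians under 1, namely 0.998 for *Cd8a*, 0.933 for *Il2ra*, 0.858 for *Cd8b1*, 0.808 for *Cd28* and 0.719 for *Foxp3*. Counting precision differed accordingly. *Cd8b1* had 1 to 190 counts per library and *Foxp3* 2 to 115, whereas *Cd4* had 15 to 906.

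At day 22 most of the 10 genes rose over day 0 on both diets. *Cd3e*, a chain of the CD3 complex, had 0.989, 0.661, 3.66 and 1.39 CPM in the day 0 standard samples and 10.6, 17.4 and 10.7 CPM at day 22. With GW3965 it had 1.52, 1.99, 1.24 and 1.19 CPM at day 0 and 12.1, 13.6 and 11.3 CPM at day 22. Every day 22 sample was above every day 0 sample, and the log2 fold changes were 2.85 (SE 0.55, adjusted p = 0.00391) and 2.94 (SE 0.56, adjusted p = 0.00193, edgeR quasi-likelihood test here and below). On the standard diet 6 of the 10 genes were called, all as higher, against 7.73% of all genes called and 6.19% called as higher. They were *Cd3e*, *Foxp3*, *Ctla4*, *Il2ra*, *Icos* and *Gzmb*. With GW3965, 9 were called as higher, all but *Cd8b1*, against 12.6% of all genes called and 9.13% as higher. Day 22 and day 0 did not overlap for any of the 10 genes on either diet, which held for 15.9% of all genes on the standard diet and 25.2% on the GW3965 diet in this direction. The median log2 fold change of the 10 was 2.61 and 2.76, against -0.0011 and 0.02 over all genes.

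The activation genes *Ctla4*, *Icos* and *Gzmb* had the 3 highest estimates on each diet. *Ctla4*, the inhibitory receptor, had 0.188, 0.236, 1.83 and 0.545 CPM at day 0 and 5.64, 11.9 and 17.8 CPM at day 22 on the standard diet. With GW3965 it had 0.246, 0.433, 0.221 and 0.0994 CPM at day 0, where libraries held 2 to 10 counts, and 14.3, 10.3 and 13.5 CPM at day 22. Its log2 fold changes were 3.86 (SE 0.72) and 5.33 (SE 0.80). *Icos*, the inducible co-stimulator, rose by 3.57 (SE 0.60) and 4.09 (SE 0.63) on the log2 scale, from group means of 1.33 and 0.696 CPM to 17.4 and 13.5 CPM. The co-receptor genes missed the threshold on the standard diet, with log2 fold changes of 1.84 for *Cd4* (adjusted p = 0.0641), 1.69 for *Cd8a* (adjusted p = 0.0716) and 2.62 for *Cd8b1* (adjusted p = 0.0942). Without the day 0 standard sample that was highest for all 10 genes, 9 were called. In fits of only the 7 standard samples compared, 0 of the 10 were called, with 32 genes called in all. On the GW3965 diet 5 were called without day 22 replicate 1. *Cd4* (1.94, adjusted p = 0.0424) lost its call there in each of the 7 fits that left out a sample. For these fits with a sample left out the share of all genes called is not given, so their counts do not set the 10 apart.

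Other genes of the pathway were also higher at day 22. Of 17 genes of the T cell receptor and its proximal signalling, 15 were called as higher on the standard diet and 17 on the GW3965 diet, with median log2 fold changes of 2.71 and 2.91. They included *Cd3d*, another CD3 chain (3.22, from a mean of 2.13 to 29.4 CPM on the standard diet), and *Trbc2*, a constant region of the receptor beta chain (3.05). Of 13 tested genes of co-stimulatory and checkpoint ligands and receptors, 10 were called as higher on each diet, among them *Lag3* and *Cd86*. Cytotoxic effector genes were called as higher in 5 of 12 on the standard diet and 10 of 12 on the GW3965 diet. *Gzma*, the granzyme A gene, had means of 0.669 and 11.9 CPM on the standard diet and 0.648 and 45.4 CPM on the GW3965 diet at days 0 and 22. Of 15 partners of regulatory T cells, 5 and 6 were called as higher, including *Tnfrsf4* (OX40) and *Il10*. The counts called as higher on the standard and GW3965 diets were 3 and 6 of 13 helper lineage genes, 5 and 5 of 10 genes of gamma delta and intraepithelial T cells, 7 and 2 of 10 homing genes, and 3 and 4 of 7 interleukin 2 family genes. Of the 6 natural killer cell markers, 0 were called on the standard diet and 3 as higher on the GW3965 diet, and of the 6 neutrophil markers 5 were called as higher on each, so other cell types moved with the T cell genes. The 9 B cell markers summed to 48.0 to 254 CPM at day 0 and 366 to 690 CPM at day 22 on the standard diet. With GW3965 they summed to 76.0 to 180.2 and 306 to 571 CPM. By edgeR 0 were called on either diet. At an unadjusted p under 0.05 there were 8 and 6, against 20.9% and 26.6% of all genes. The 7 macrophage markers summed to 234 to 359 and 469 to 697 CPM on the standard diet, and to 155 to 251 and 454 to 741 CPM with GW3965, with 2 and 4 called as higher. The part of these cells in the result was not tested.

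The diets were then compared at day 22, where *Gzmb*, *Foxp3* and *Cd8b1* were the 3 genes without overlap, the first higher with GW3965 and the other two lower. Over all genes, 12.1% were higher and 11.5% lower without overlap, so 3 of 10 is near the background. *Gzmb* at day 0 had levels that were 0.236, 0.661, 0.766 and 0.545 CPM on the standard diet and 0.540, 1.52, 0.883 and 0.597 CPM on the GW3965 diet. At day 22 they were 5.43, 7.39 and 17.3 CPM on the standard diet and 33.4, 34.0 and 46.3 CPM on the GW3965 diet. The 3 GW3965 samples were above the 3 standard samples, but the log2 fold change of 1.80 (SE 0.56, 95% interval 0.62 to 2.98) did not pass after adjustment (unadjusted p = 0.00458, adjusted p = 0.223), nor with DESeq2 (adjusted p = 0.0656). The natural killer markers summed to 8.98 to 12.2 CPM in these GW3965 samples and 4.78 to 6.88 CPM in the standard samples, and their part was not tested. At day 22, 0 of the 10 genes were called between the diets by edgeR, against 0.135% of all genes, and 0 by DESeq2. At an unadjusted p under 0.05 by edgeR there was 1, *Gzmb*, against 9.96% of all genes. *Foxp3* and *Cd8b1* lay in the opposite direction. *Foxp3* had 3.55, 5.25 and 5.94 CPM on the standard diet and 2.83, 2.20 and 2.63 CPM on the GW3965 diet (log2 fold change -0.95, SE 0.69, adjusted p = 0.705). *Cd8b1* had 3.82, 9.68 and 3.67 CPM against 3.64, 2.83 and 2.76 CPM (-0.92, SE 0.93, adjusted p = 0.829).

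In untreated colon no diet difference passed the test. At day 0, 0 of the 10 genes were called by edgeR, against 0.0293% of all genes, and 0 by DESeq2. At an unadjusted p under 0.05 by edgeR there were 0, against 1.94% of all genes. Log2 fold changes ran from -1.46 for *Ctla4* (95% interval -3.02 to 0.10) to 0.66 for *Gzmb* (-0.50 to 1.83), with 2 of 10 positive and a median of -0.72 (-0.02 over all genes). The 95% intervals of all genes but *Il2ra* and *Gzmb* held a 2-fold lower level with GW3965, and that of *Gzmb* a 2-fold higher one. Differences of that size were therefore not excluded for those genes.

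At day 43 the reading depended on the ribosomal term. *Cd3e* had 1.90, 9.47 and 8.84 CPM on the standard diet, the first value from the sample with degraded RNA, and 13.98, 11.9 and 7.74 CPM on the GW3965 diet. *Ctla4* had 17.9, 16.6 and 25.1 CPM and 21.6, 14.1 and 5.63 CPM, so the degraded sample was within the range of its group for *Ctla4* alone. With the ribosomal term 0 of the 10 genes were called against day 0 on the standard diet by edgeR, against 0% of all genes, and 0 by DESeq2. At an unadjusted p under 0.05 by edgeR there were 2, against 8.02% of all genes. On the GW3965 diet 0 were called by edgeR, against 0.938% of all genes, and 3 by DESeq2, against 3.55%. At an unadjusted p under 0.05 by edgeR there were 7, against 13.6% of all genes. With GW3965 every day 43 sample was above every day 0 sample for all 10 genes, as for 30.8% of all genes. On the standard diet, whose day 43 group holds the degraded sample, this was so for 3 of the 10 (*Cd8a*, *Ctla4* and *Gzmb*). The share of all genes there is not given, so the 2 diets are not compared by these counts. Without the ribosomal term 7 and 10 genes were called, against 55.1% and 45.3% of all genes, with log2 fold changes on the GW3965 diet from 1.55 for *Cd4* to 5.74 for *Ctla4*. *Cd8a* on the standard diet turned from -0.39 with the term to 1.58 without it. The ribosomal share was highest at day 43, with little overlap with the other days, so its part and that of the day cannot be told apart. Between the diets at day 43, 0 of the 10 genes were called by edgeR, against 0.0293% of all genes, and 0 by DESeq2. At an unadjusted p under 0.05 by edgeR there were 0, against 8.65% of all genes. Log2 fold changes ran from -0.15 for *Ctla4* to 0.89 for *Icos*.

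By day 70 the standard diet samples were far below the day 22 level. *Cd3e* had 0.841, 1.65 and 1.69 CPM, *Cd4* 0.789, 5.40 and 2.16 CPM, and *Icos* 0.946, 2.18 and 1.52 CPM. All of these were below every day 22 standard sample. All 10 genes fell against day 22, against 31.8% of all genes called and 16.3% called as lower. The falls ran from 1.90 on the log2 scale for *Gzmb* (SE 0.58, adjusted p = 0.018) to 4.78 for *Cd8b1* (SE 1.16, adjusted p = 0.00518), whose day 70 libraries held 1, 6 and 5 counts. Day 70 and day 22 did not overlap for any of the 10, as for 25.3% of all genes in this direction. Of the 17 receptor and signalling genes 16 also fell, with a median of -2.89, and all 9 B cell markers fell, with a median of -5.59. All 8 stratified epithelium markers rose in the same comparison, with a median of 8.05, and 5 of 6 smooth muscle markers fell, and the part of this change of tissue was not tested.

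With GW3965 the change from day 22 to day 70 was nearer to 0 than on the standard diet for 9 of the 10 genes, the exception being *Gzmb*, and the difference between the diets in this change was not tested. Only *Gzmb* was called, against 4.41% of all genes, with the day 22 levels given above and 2.35, 8.58 and 3.74 CPM at day 70 (log2 fold change -2.54, SE 0.66, adjusted p = 0.0345). That call was lost in 5 of the 6 fits that left out a sample, the exception being the fit without GW3965 day 70 replicate 2. The other 9 had log2 fold changes from -1.53 for *Cd8b1* to 0.28 for *Foxp3*. Day 70 lay below day 22 without overlap for 5 of the 10 (*Cd3e*, *Cd8a*, *Cd8b1*, *Ctla4* and *Gzmb*), as for 19% of all genes in this direction.

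Set against day 0, the day 70 levels again differed by diet in value. On the standard diet 2 of the 10 were called, against 33.2% of all genes, a smaller share than the background. *Gzmb* rose by 2.13 on the log2 scale (SE 0.57, adjusted p = 0.00746) and *Cd28*, the co-stimulatory receptor, fell by 1.92 (SE 0.69, adjusted p = 0.0386). *Cd28* was called in 3 of the 7 fits that left out a sample and *Gzmb* in all 7. With GW3965, 7 rose (*Cd3e*, *Foxp3*, *Ctla4*, *Il2ra*, *Cd28*, *Icos* and *Gzmb*), against 21.8% of all genes called and 14.4% as higher. The largest was *Ctla4*, from 0.0994 to 0.433 CPM at day 0 to 2.25, 7.15 and 1.20 CPM at day 70 (4.02, SE 0.79, adjusted p = 0.00146). *Foxp3*, the regulatory T cell factor, had 0.0983 to 0.606 CPM at day 0 and 3.79, 4.20 and 1.27 CPM at day 70 (3.06, SE 0.71, adjusted p = 0.0048). Of the 17 receptor and signalling genes, 15 were called as higher with GW3965 and 0 on the standard diet by edgeR. On the standard diet 2 had an unadjusted p under 0.05, against 43.6% of all genes. In a fit of only the 7 GW3965 samples compared 0 of the 10 were called, with 47 genes called in all.

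Between the diets, the 10 genes had their highest median log2 fold change at day 70. *Cd4*, the helper and regulatory co-receptor, had 0.789, 5.40 and 2.16 CPM on the standard diet and 22.2, 33.4 and 8.97 CPM on the GW3965 diet. *Il2ra* had 1.42, 2.79 and 2.11 CPM against 6.40, 9.50 and 5.37 CPM. *Cd28* had 0.158, 1.09 and 0.972 CPM against 3.33, 11.7 and 0.989 CPM. The diets did not overlap for *Cd4* and *Il2ra*, while GW3965 replicate 3 fell within the standard range for *Cd28*. These 3 genes were called as higher on the GW3965 diet, by 2.82 on the log2 scale for *Cd4* (SE 0.70, adjusted p = 0.0455), 1.79 for *Il2ra* (SE 0.46, adjusted p = 0.0487) and 3.03 for *Cd28* (SE 0.77, adjusted p = 0.0485). That is 3 of 10, against 1.83% of all genes called and 1.75% as higher.

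**Figure D2:**
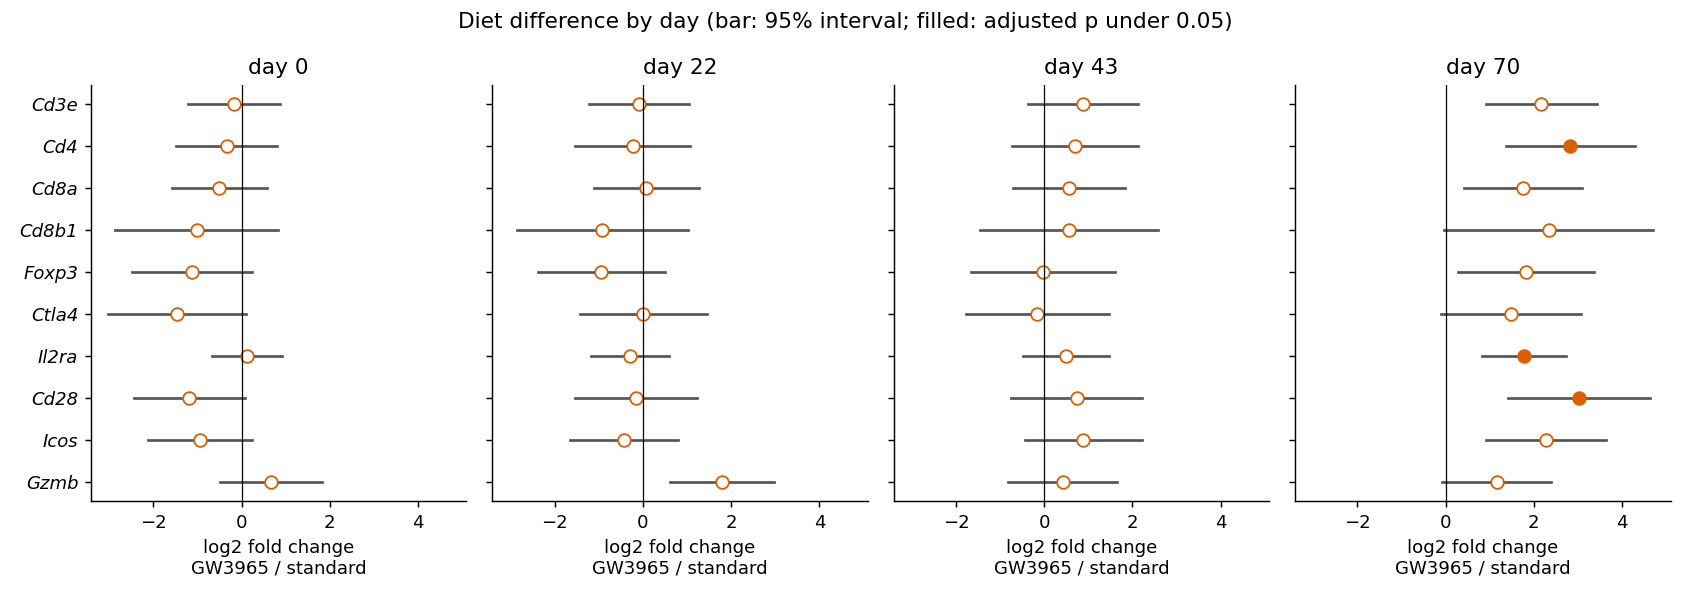
Log2 fold change of GW3965 over standard diet for each gene at days 0, 22, 43 and 70; points are edgeR estimates, bars are 95% intervals, and filled points have an adjusted p under 0.05. At day 70 all 10 points lie above 0 and 3 are filled (*Cd4*, *Il2ra* and *Cd28*), and none is filled at the other days.

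The other 7 were also higher in estimate. *Cd3e* had 5.12, 9.28 and 3.25 CPM on the GW3965 diet, each above every standard sample (2.17, SE 0.60, adjusted p = 0.0631), and *Icos* had 5.12, 11.3 and 3.50 CPM, likewise without overlap (2.27, SE 0.65, adjusted p = 0.0711). *Cd8a*, *Cd8b1*, *Foxp3*, *Ctla4* and *Gzmb* overlapped between the diets, with log2 fold changes of 1.75, 2.34, 1.82, 1.48 and 1.16 and adjusted p from 0.148 to 0.3. In all, 7 of the 10 had an unadjusted p under 0.05, against 18.8% of all genes. The median of the 10 was 2.00 (0.02 over all genes), and 4 were without overlap, against 10.5% of all genes in this direction.

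The day 70 calls were close to the threshold and rested on single libraries. No gene of the 10 was called without standard replicate 1, without standard replicate 3, without GW3965 replicate 1 or without GW3965 replicate 2. *Cd4* alone was called without standard replicate 2, and 6 were called without GW3965 replicate 3. Among all 17063 genes, 312 were called with all samples and between 6 and 1476 with one left out. GW3965 replicate 2 was the highest of its group, and standard replicate 1 the lowest of its group, for all 10 genes. GW3965 replicate 2 was also the library with 6.34 CPM of stratified epithelium markers, against 2554 CPM or more in the other day 70 libraries. Its B cell markers summed to 453 CPM, the highest of its group. The part of its tissue makeup in the diet difference was not tested. In every fit with a sample left out the 10 log2 fold changes were above 0, from 0.42 to 3.75. Without a filter on low counts 0 of the 10 were called, without the 6 day 43 samples only *Il2ra* was called, and DESeq2 called 5, against 6.81% of all genes. For the fits without the filter and without the day 43 samples the share of all genes called is not given. Their counts therefore do not set the 10 apart from other genes.

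Other lymphocyte genes differed at day 70 in the same direction. All 17 receptor and signalling genes had positive log2 fold changes, with a median of 2.19, and 2 were called. These were *Cd247*, the zeta chain (2.32), and *Ptprc*, the pan-leukocyte CD45 gene (2.04, from a mean of 26.7 to 95.9 CPM). *Ptprc* had 17.9, 39.1 and 23.2 CPM on the standard diet and 57.0, 173 and 58.0 CPM on the GW3965 diet, so replicate 2 raised the GW3965 mean. Of 13 helper cell genes 2 were called, *Cxcr5* (6.39) and *Ccr6* (3.99), receptors that B cells carry too. *Btla*, an inhibitory receptor of T and B cells, was the 1 call among 13 checkpoint genes (3.18), and *Itgae* and *Tcrg-C1* were the 2 among 10 genes of gamma delta and intraepithelial T cells. No cytotoxic effector of 12 and no regulatory T cell partner of 15 was called by edgeR, with medians of 1.78 and 0.52. At an unadjusted p under 0.05 there were 7 and 2, against 18.8% of all genes. All 9 B cell markers were called, with a median of 4.52. Their sum was 5.83, 12.8 and 7.44 CPM on the standard diet and 68.3, 453 and 24.6 CPM on the GW3965 diet, and 3 of 7 dendritic cell markers were called as higher. The 7 markers of macrophages, which also express *Cd4*, summed to 134 to 264 CPM on the standard diet and 285 to 437 CPM on the GW3965 diet. The part of these cells in the T cell result, including the *Cd4* call, was not tested.

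**Figure D3:**
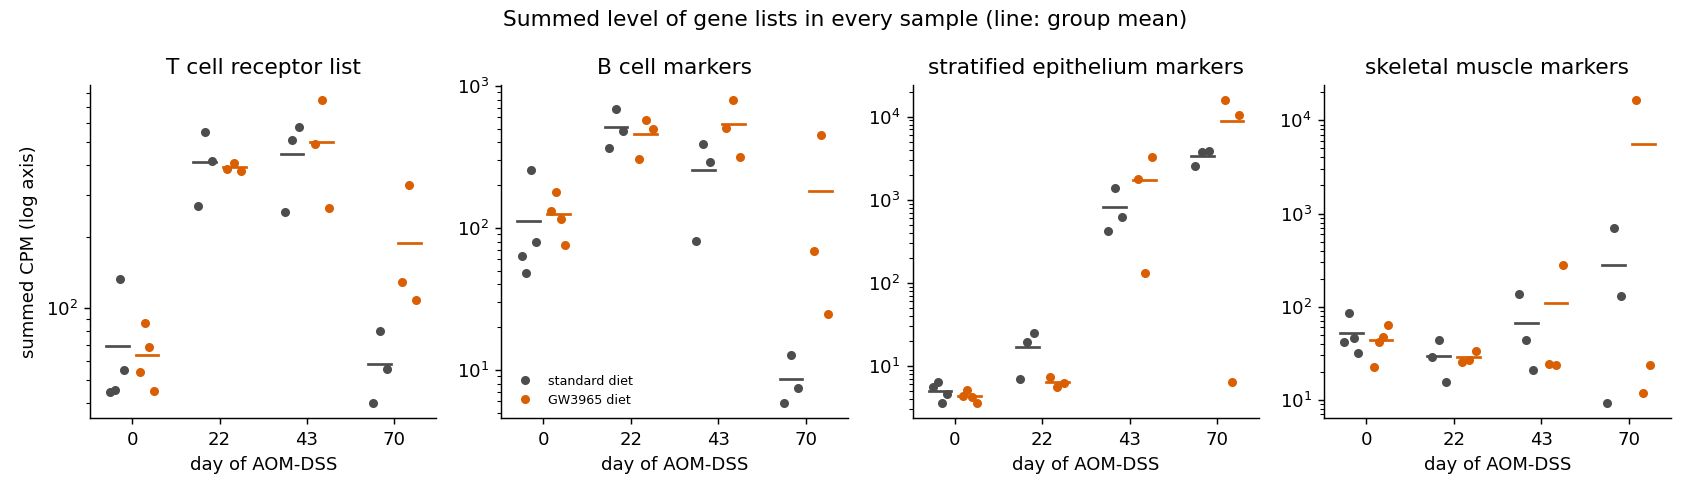
Summed CPM (log axis) of 17 T cell receptor and signalling genes (*Ptprc* included), 9 B cell markers, 8 stratified epithelium markers and 6 skeletal muscle markers in every sample; points are samples and lines are group means. The pan-leukocyte gene *Ptprc* makes up much of the first sum. In day 70 group means it is 26.7 of 58.2 CPM on the standard diet and 95.9 of 188 CPM with GW3965. At day 70 the B cell sum of the standard samples is 5.83 to 12.8 CPM and that of the GW3965 samples 24.6 to 453 CPM. GW3965 day 70 replicate 2 has 6.34 CPM of the stratified epithelium markers while the other day 70 samples have 2554 CPM or more.

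Whether the diet effect changed from day 0 was tested as a difference of differences. At day 22, 0 of the 10 genes were called by edgeR, against 0.0234% of all genes, and 0 by DESeq2. At an unadjusted p under 0.05 there were 0, against 6.24%. At day 43, 0 were called by edgeR, against 0% of all genes, and 0 by DESeq2, with 1 unadjusted, against 4.37%. At day 70, 0 were called by edgeR, against 0% of all genes, with 9 unadjusted, against 12.7%. DESeq2 called 3 at day 70 (*Cd4*, *Cd28* and *Icos*), against 1.81% of all genes. The day 70 estimates were all above 0, from 0.49 for *Gzmb* (adjusted p = 0.841) to 4.21 for *Cd28* (SE 0.98, adjusted p = 0.148), with a median of 2.94 against 0.04 over all genes. By edgeR, a diet effect that differs from that of day 0 was not shown at any of these days.

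Ratios between 2 genes of the same library do not depend on library scaling. Over 9 ratios and 10 comparisons, 90 two-sided exact permutation tests were made, of which 18 had an unadjusted p of 0.0286, the smallest that 3 samples against 4 allow, and 0 passed after adjustment (smallest adjusted p = 0.143). Between the diets at days 22, 43 and 70 no exact p could go below 0.1. The counts of *Ctla4* relative to *Cd28*, receptors of opposite sign for the same ligands, moved furthest. The mean log2 ratio on the standard diet was -2.33 ± 0.63 (SD, n = 4) at day 0, 0.11 ± 0.52 (SD, n = 3) at day 22, 2.19 ± 0.72 (SD, n = 3) at day 43 and 1.11 ± 0.85 (SD, n = 3) at day 70. With GW3965 the means were -2.23 ± 1.07 (SD, n = 4), 0.44 ± 0.38 (SD, n = 3), 0.91 ± 0.79 (SD, n = 3) and -0.33 ± 0.53 (SD, n = 3). Every later sample was above every day 0 sample of its diet, and between the diets at day 70 the ratio overlapped. *Icos* relative to *Cd28* was likewise higher after day 0, from -1.25 ± 0.46 (SD, n = 4) to 0.80 ± 0.07 (SD, n = 3) at day 22 on the standard diet.

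**Figure D4:**
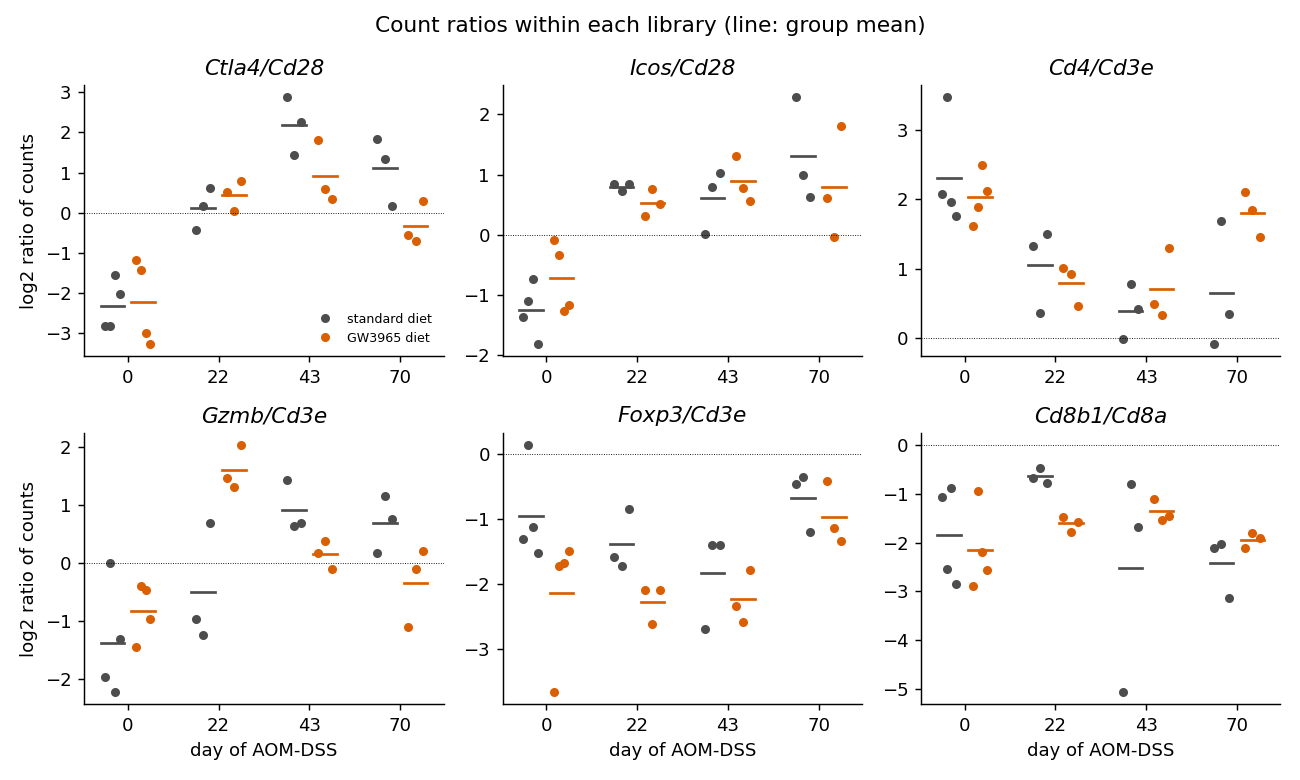
Log2 ratio of the counts of 2 genes within each library for 6 of the 9 ratios, by day and diet; points are samples and lines are group means. *Ctla4*/*Cd28* rises from group means of -2.33 and -2.23 at day 0 to 2.19 and 0.91 at day 43, *Cd4*/*Cd3e* has lower means at days 22 and 43 than at day 0, and 1 standard day 43 library has a *Cd8b1*/*Cd8a* value near -5.06.

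*Cd4* counts relative to *Cd3e* ran the other way. The mean log2 ratio was 2.32 ± 0.78 (SD, n = 4) and 2.03 ± 0.37 (SD, n = 4) at day 0 on the standard and GW3965 diets, and 0.39 ± 0.40 (SD, n = 3) and 0.71 ± 0.52 (SD, n = 3) at day 43. By day 70 the ratio came to 0.65 ± 0.93 (SD, n = 3) and 1.80 ± 0.33 (SD, n = 3). *Cd4* is also expressed by macrophages and dendritic cells. The 7 macrophage markers summed to 155 to 359 CPM at day 0. At day 70 they summed to 134 to 264 CPM on the standard diet and 285 to 437 CPM with GW3965. The part of those cells was not tested. *Gzmb* relative to *Cd3e* was -0.50 ± 1.05 (SD, n = 3) on the standard diet and 1.60 ± 0.38 (SD, n = 3) on the GW3965 diet at day 22, without overlap (exact p = 0.1, the smallest for 3 against 3). At day 43 the order was the reverse, also without overlap, at 0.92 ± 0.44 on the standard diet and 0.15 ± 0.24 with GW3965 (SD, n = 3 each, exact p = 0.1), and at day 70 the means were 0.69 and -0.34 with overlap. At day 22, *Foxp3* relative to *Cd3e* was lower with GW3965 than on the standard diet, at -2.27 ± 0.30 against -1.39 ± 0.47 (SD, n = 3 each, exact p = 0.1). This ratio was lower in mean with GW3965 in untreated colon too, at -2.13 ± 1.02 against -0.96 ± 0.75 (SD, n = 4 each, exact p = 0.0571), where the samples overlapped. *Foxp3* relative to *Cd8b1* was higher at day 70 than at day 0 on both diets in mean, at 2.29 ± 0.67 and 2.25 ± 0.86 (SD, n = 3 each), but the *Cd8b1* libraries there held as few as 1 count. *Cd3e* relative to *Ptprc* was higher than at day 0 at all 3 later days on the GW3965 diet (exact p = 0.0286 each, adjusted p = 0.143). At day 22 the log2 difference from day 0 was 1.05 on both diets, also without overlap on the standard diet (exact p = 0.0571). On the standard diet it was -0.43 at day 43 and 0.35 at day 70, both with overlap. Between the diets, this ratio was higher with GW3965 at day 43 without overlap (log2 difference 1.25, exact p = 0.1), where the standard group holds the degraded sample. At day 22, *Cd8b1* was lower with GW3965 without overlap relative to *Cd8a* (-0.96) and to *Cd3e* (-0.71, exact p = 0.1 each).

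Across the 26 samples the 10 genes moved together, as a description of libraries that share days, diets and tissue makeup. Pearson's r of log2 CPM over the 45 pairs had a median of 0.831, from 0.559 for *Cd4* with *Ctla4* to 0.965 for *Cd3e* with *Icos*. Among all tested genes, those most like *Cd3e* were *Cd6* (0.971), *Rinl*, *Parvg*, *Icos* and *Cd247*. Those most like *Cd8b1* were *Il21r* (0.943), *Arhgap45*, *Ms4a4b*, *Gimap1* and *Rhoh*, and those most like *Foxp3* were *Cd5* (0.935), *Rassf5*, *Myo1f*, *Trac* and *Spn*. *Gzmb* was nearest to *H2-Q4* (0.955), *H2-Q7*, *H2-DMb1*, *Cxcl9* and *Serpina3g*, genes of antigen presentation and of the response to interferon gamma, and none of the 10 T cell genes was among its nearest 5.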

How the data were processed

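Paired-end RNA-seq reads of 26 colon samples were pseudoaligned by the authors with kallisto (version not given in the sources used here) to the GRCm38 cDNA, and the deposited tables give estimated counts and TPM for 119414 transcripts. Of these, 116728 (97.75%) were matched by identifier to GENCODE M21 genes. The deposited estimated counts were summed by gene and rounded, and the deposited TPM were summed by gene to compare genes per length. No 2 samples held identical values.

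Genes passing filterByExpr (17063) were scaled by TMM and tested with edgeR 4.0.16 (quasi-likelihood F-test, R 4.3.3). The model held the 8 groups plus, as an additive term, the centred percentage of counts on 88 ribosomal protein genes. The study instead corrected for a percentage of ribosomal RNA, which its model let interact with diet and time. P-values were adjusted over all tested genes (Benjamini-Hochberg), and genes with an adjusted p under 0.05 were called. The CPM and fold changes of a gene use the TMM library sizes, and log2 CPM used a prior count of 2. Ratios used counts + 0.5 and two-sided exact permutation tests. Alternatives were no ribosomal term, RLE size factors, no filter, DESeq2 1.42.0, only the groups compared, a replicate block, and leaving out each sample in turn, the sample of conflicting labels or the day 43 samples. Ratios were also taken with a pseudocount of 2 and from TPM. The fit was tested on simulated counts.

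The 10 genes and all gene lists were chosen with earlier results of these data known. All 10 were named throughout. From each list the genes called in a comparison could be named, at most the 5 of smallest p, and the 5 tested genes most correlated with *Cd3e*, *Cd8b1*, *Foxp3* and *Gzmb*. The sequences are from RefSeq on GRCm38.p6, which held windows for 6 of the 10 genes.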

Additional observations from a re-analysis of the deposited data

Results flagged for a closer look

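In groups of 4 samples, 38 groups of values were checked for a highest or lowest sample far from the rest, and chance marks about 1 in 20 of them. Of the 4 values marked, 3 came from the same library, standard diet day 0 replicate 1 of 43 diet days: *Cd8a* at 3.87 CPM, *Il2ra* at 2.85 CPM and *Icos* at 3.28 CPM lay far above the other 3 standard day 0 samples. Its B cell markers summed to 254 CPM, against 48.0 to 79.0 CPM in those 3 samples. The fourth was the log2 ratio of *Foxp3* to *Cd3e* in GW3965 day 0 replicate 1 of 22 diet days, at -3.655, where *Foxp3* had 2 counts and *Cd3e* 31. The cause of neither was tested.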

How the results depend on the processing

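Values are genes called of the 10, by comparison. Where no share of all genes is given for an alternative fit, its count does not compare the 10 with other genes. Without the ribosomal term, 7 (standard) and 10 (GW3965) were called at day 43 against day 0, against 55.1% and 45.3% of all genes. With the term 0 were called there. *Cd8a* on the standard diet reversed from -0.39 to 1.58 in that comparison. Without the filter on low counts, 0 were called between diets at day 70 (from 3), and 1 at day 70 against day 0 on the standard diet (from 2). DESeq2 called 5 between diets at day 70, 3 at day 43 against day 0 on GW3965 and 3 for the change of the diet effect at day 70 (from 0). The shares of all genes called by DESeq2 were 6.81%, 3.55% and 1.81%. Fits of only the groups compared, which have few residual degrees of freedom, called 0 between diets at day 70, 0 at day 22 against day 0 on the standard diet (from 6), 5 at day 70 against day 0 on the standard diet, 4 at day 43 and 0 at day 70 against day 0 on GW3965 (from 0 and 7), and 0 at day 70 against day 22 on GW3965 (from 1). Without the 6 day 43 samples, an alternative chosen after seeing the data, 1 was called between diets at day 70, 1 at day 70 against day 0 on the standard diet and 0 at day 70 against day 22 on GW3965. Leaving out one sample gave 0 to 6 between diets at day 70, 5 to 9 at day 22 against day 0 on GW3965, 1 to 2 at day 70 against day 0 on the standard diet, 0 to 2 at day 70 against day 22 on GW3965 and 0 to 4 for the change of the diet effect at day 70. Beyond what their construction shows, the cause was not tested. With RLE size factors 149 of 150 gene results kept direction and call, the exception being *Il2ra* at day 70 (adjusted p = 0.0516).

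Replicate numbers are shared by the diets, but the samples come from different cages, and the deviations of 13 same-numbered pairs correlated from -0.37 to 0.201 with a mean of -0.0661. The numbers therefore do not pair the samples. With the replicate block 0 of the 10 genes (8 genes in all) were called between diets at day 70 and 1 at day 70 against day 0 on the standard diet. No ratio passed after adjustment under another pseudocount, summed TPM or a left-out sample. Depth limits *Cd8b1* and *Foxp3* most, with as few as 1 and 2 counts in a library.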
